A study of Mus musculus with 2 samples.

Results

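Leukocytes leave the blood by binding to adhesion molecules on the vessel wall. Selectins on endothelium, the cell layer that lines vessels, catch passing cells on sugar-carrying ligands and let them roll, and integrins on the leukocyte then bind endothelial ICAM and VCAM proteins and hold the cell in place before it crosses. Inflammatory cytokines raise Icam1, Vcam1, Sele and Selp transcription in mouse endothelium through NF-kappaB, and recruited monocytes and resident macrophages are known from the lateral wall and spiral ligament of noise-exposed cochleae.

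The 9 genes described here were chosen by name, as the non-control probes annotated to Icam1, Icam2, Vcam1, Sele and Selp on the endothelial side and to Selplg, Itgal, Itgam and Itgb2 on the leukocyte side. They are 9 of the 37074 gene names on the array, and all 9 are among the 26533 genes measured on both arrays, meaning that at least 1 probe was called well above background on each. They were carried by 17 probes, of which 16 were measured.

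The data are total RNA of cochlear tissue from 7-week-old female C57BL/6 mice, an inbred strain, hybridised to 1-colour Agilent expression arrays. The noise sample stands for mice exposed to intense noise over 2 hours, with the tissue taken 3 hours later, and the baseline sample for mice that received no noise. Each group had 1 array, and how many mice stand behind each is not given in the sources used here. No difference below was therefore tested across animals, no p-value was computed, and a 2-fold size rule (a log2 ratio of 1 or more in size) stands in for a test. In whole tissue, fewer cells of a type and less RNA per cell cannot be told apart.

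The arrays were alike in brightness, with 75.3% (noise) and 75.2% (baseline) of probes well above background and processed signals of 316 and 278 at the 75th percentile. Ratios are noise minus baseline on the log2 scale after each array was set to its own 75th percentile. All 16 cochlear marker genes that were listed were measured, 13 of them above 0 with a median log2 ratio of 0.28, from 0.67 for the hair cell factor gene Pou4f3 to -0.75 for Slc26a5, the outer hair cell motor, whose signals were only 5.62 and 8.35. With normexp correction Pou4f3 was at 0.23 and Slc26a5 at -0.19, and Slc26a5 turned to 0.11 when dim probes were kept and was not measured under the stricter filter. Markers of tissue outside the cochlea were lower on the noise array. Past 2-fold were 5 of 6 adipocyte genes (Adipoq, Plin1, Cidec, Cfd and Ucp1, but not Lep at -0.075), 5 of 6 skeletal muscle genes (Ckm, Myh1, Myh2, Myh4 and Mb, but not Acta1 at -0.66) and all 5 measured central neuron or glia genes (Olig1, Olig2, Slc1a2, Slc32a1 and Glra1). With normexp correction Plin1 (-0.35), Ckm (-0.52), Myh2 (-0.87), Myh4 (-0.41) and Olig2 (-0.41) were no longer past 2-fold. With spike-in scaling Ckm, Myh1, Myh2 and Myh4 (-0.87 to -0.80) were not, and without a filter Myh2 (-0.37) and Slc1a2 (-0.95) were not. The summed adipocyte level was 10.2 against 42.2 times the 75th percentile. Their part in the values of the adhesion genes was not tested.

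Probes of Icam1 and Vcam1 are shown because the probes of these genes gave different ratios, and those of Itgam because one of them holds a repeat. The probes of a gene also differed in signal, and why their ratios differ was not tested. The first Icam1 probe lies at chr9:20832290-20832349 and the second at chr9:20833186-20833245, where only the last 30 bases are shown. Capitals mark AATAAA, the letters of the polyadenylation signal, which 9.77% of all probes hold. Whether they act as one here was not tested. The Vcam1 probe lies at chr3:115828953-115829012 on the minus strand. The Itgam probes lie at chr7:135212140-135212199 and chr7:135261755-135261814, and of the latter the first 30 bases are shown, with a run of 20 bases of alternating C and A in capitals. Positions are those of the array design, on the mm9 assembly. Its annotation was not used here, so exons are not given.
Icam1 A_52_P613241: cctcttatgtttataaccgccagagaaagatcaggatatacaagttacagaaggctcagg
Icam1 A_51_P408506: agaaacctttcctttgaatcAATAAAgttt
Vcam1 A_52_P520495: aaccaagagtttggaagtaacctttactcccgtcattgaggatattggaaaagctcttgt
Itgam A_55_P1977926: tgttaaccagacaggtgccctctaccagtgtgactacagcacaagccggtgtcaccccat
Itgam A_55_P1977934: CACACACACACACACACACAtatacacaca

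The endothelial adhesion genes were all somewhat higher on the noise array, and none reached 2-fold, although Sele was not higher with normexp background correction. Sele was at 1.70-fold, Icam1 at 1.43-fold, Vcam1 at 1.30-fold, Icam2 at 1.16-fold and Selp, which cytokines also induce, at 1.09-fold. This order held only in some settings, since Icam2 (log2 ratio 0.22) lay above Icam1 with normexp correction (0.18) and with the brightest probe or the stricter filter (0.20). The leukocyte genes were split, with Itgb2 at 1.20-fold and Itgal at 1.05-fold higher (Itgal lower with normexp background correction) and Selplg 1.05-fold and Itgam 1.14-fold lower (both above 0 with spike-in scaling). None of the 9 passed 2-fold in either direction, where 0.611% of all measured genes did so upwards and 1.25% downwards. At 1.5-fold, a rule added after the data were seen, 1 member (Sele) was higher and none lower, where 3.02% of all genes were higher and 4.99% lower. Across all genes 47.5% had a ratio above 0 and the median was -0.014, against 5 of 5 genes with a median of 0.38 on the endothelial side and 2 of 4 with a median of 0.0040 on the leukocyte side.

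**Figure D1:**
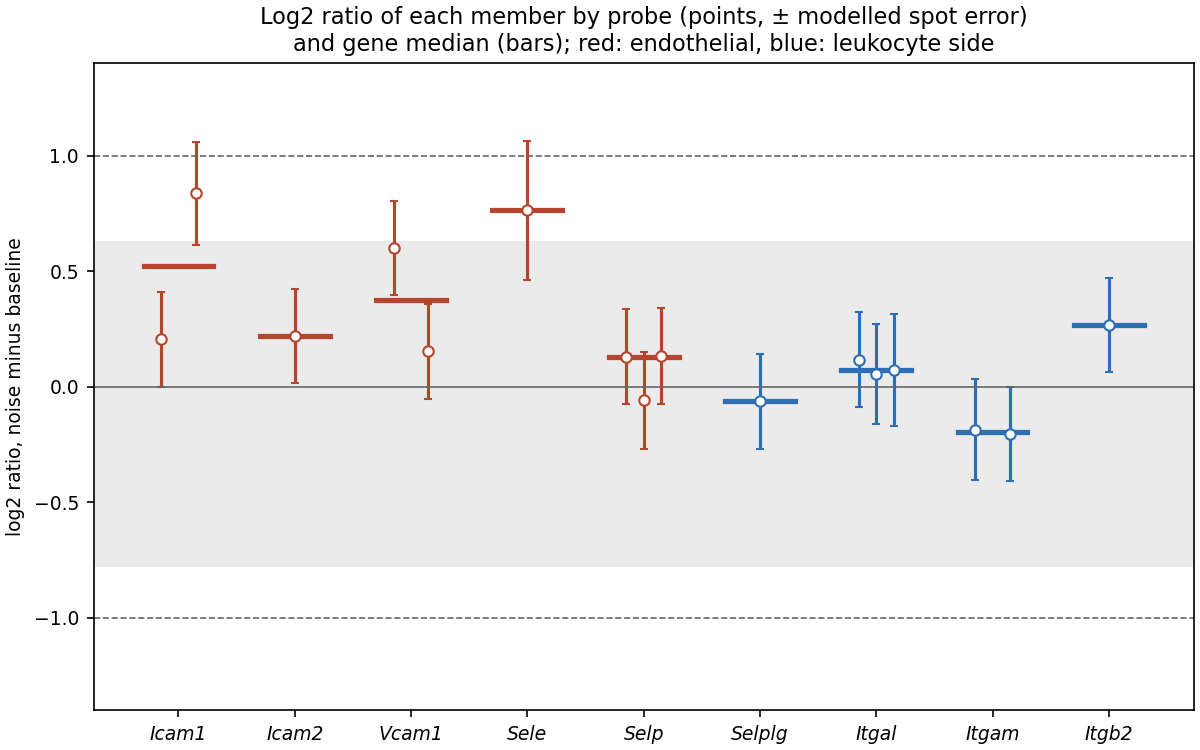
Log2 ratio, noise minus baseline, of each of the 16 measured probes (open points, with the scanner software's modelled spot error of the ratio) and of each gene (bars, median of its probes). Red marks the endothelial and blue the leukocyte side, the grey band holds the central 95% of all measured genes (-0.77 to 0.63) and dashed lines mark 2-fold. Only the Sele bar lies above the band.

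Sele encodes E-selectin, which is made almost only by activated endothelium. Its single probe, at chr1:165987726-165987785 on the plus strand, gave processed signals of 12.3 ± 1.53 after noise and 6.36 ± 1.07 at baseline, where the error is the one the scanner software models for a spot. The log2 ratio was 0.76 ± 0.30 in these units, higher than 98.6% of measured genes. The signal was low on both arrays. When measured probes were split by signal into 5 equal classes, the central 95% of ratios in the dimmest class ran from -1.01 to 0.77, and Sele lay within it. With normexp background correction, which adds an offset of 50 to every signal, the ratio was -0.011, and with a stricter signal filter Sele was no longer measured.

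Icam1 encodes the endothelial ligand of the integrins LFA-1 and Mac-1. Its probe A_52_P613241 gave signals of 41.7 ± 4.33 after noise and 20.6 ± 2.33 at baseline, a log2 ratio of 0.84 ± 0.22. The probe A_51_P408506, which starts 896 bases further along and holds AATAAA near its end, gave 441 ± 44.2 and 337 ± 33.7, a log2 ratio of 0.20 ± 0.20. Both probes were higher on the noise array, but by different amounts, 1.79-fold and 1.15-fold. The difference between them was 0.63. Over 9350 genes the SD between probes of the same gene was 0.27. That SD is of single probes about their gene mean, and differences within a pair of probes spread more widely than it. Whether a difference of 0.63 is unusual was not tested. The gene value of 0.52 is the middle of the pair, and it was 0.20 when the brighter probe alone stood for the gene.

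Vcam1 encodes the endothelial ligand of the integrin VLA-4, which monocytes and lymphocytes carry. Its probe A_51_P210956, at chr3:115813216-115813275 on the minus strand, gave 3402 ± 340 after noise and 1976 ± 198 at baseline, a log2 ratio of 0.60 ± 0.20. The probe A_52_P520495, placed 15.7 kb away on the genome, gave 265 ± 26.5 and 210 ± 21.0, a log2 ratio of 0.15 ± 0.20. For Vcam1 it was thus the brighter probe that had the larger ratio, at 1.52-fold, the reverse of Icam1. That value lay above the central 95% of ratios in the brightest of the 5 signal classes (-0.48 to 0.49). The A_52_P613241 value of Icam1 likewise lay above that of its own class, the next after the dimmest (-0.83 to 0.70).

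Icam2, a constitutive ligand of LFA-1 on resting endothelium, was read by the probe A_55_P1982049 at 1440 ± 144 after noise and 1089 ± 109 at baseline, a log2 ratio of 0.22 ± 0.20. The remaining Icam2 probe had signals of 1.06 and 1.02, not well above background. Selp encodes P-selectin, which endothelium and platelets store in granules and bring to the surface within minutes. Its 3 probes gave 145 and 117, 68.4 and 55.0, and 38.6 and 35.4 (noise and baseline), with log2 ratios of 0.13, 0.13 and -0.059. Each of these Selp ratios was smaller than its spot error of 0.20 to 0.21, and 1 of the 3 probes was lower on the noise array.

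**Figure D2:**
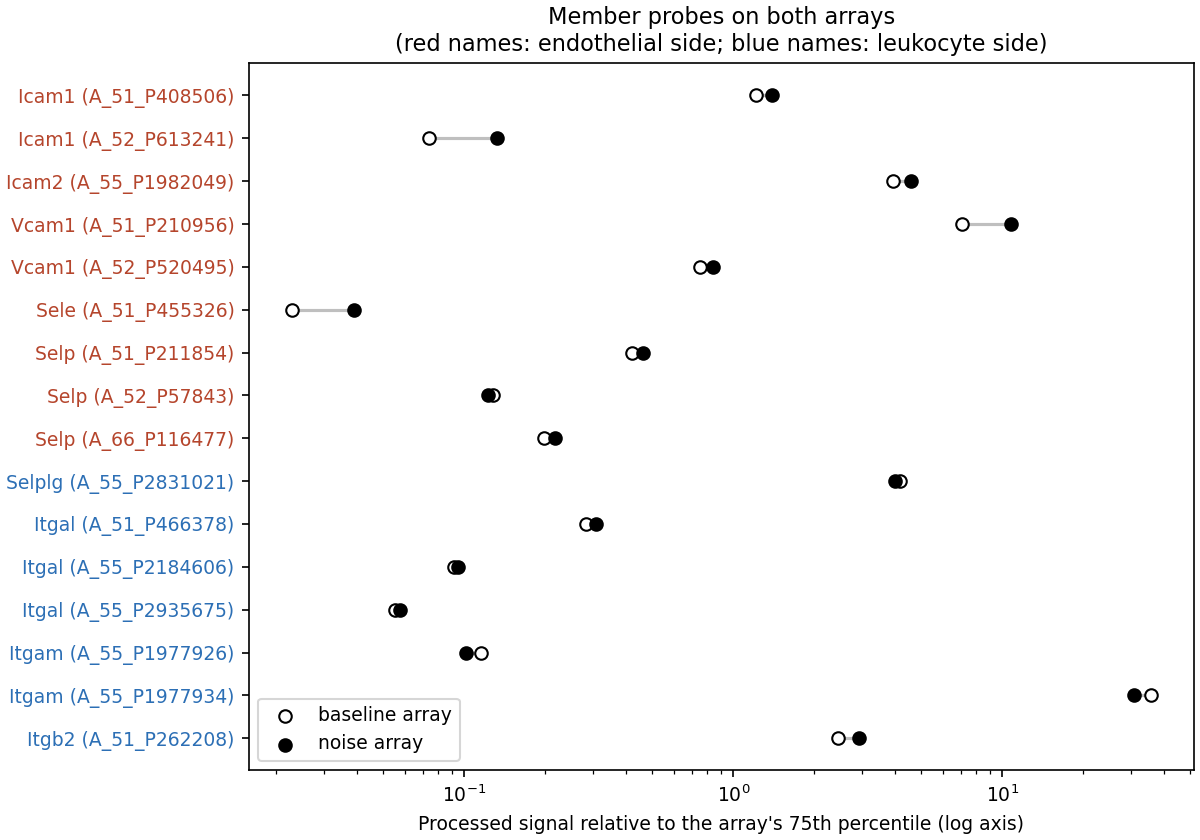
Processed signal of each measured probe relative to its array's 75th percentile, on a log axis, for the baseline array (open points) and the noise array (filled points). Signals of different probes are not comparable with each other, so the distance within a row is what can be read. It is widest for the Icam1 probe A_52_P613241 (0.84 in log2) and for Sele (0.76), and the order is reversed for both Itgam probes, Selplg and the Selp probe A_52_P57843.

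On the leukocyte side, Selplg encodes PSGL-1, the ligand that selectins catch. Its probe at chr5:114268564-114268623 on the minus strand gave 1260 ± 126 after noise and 1160 ± 116 at baseline. After scaling, its log2 ratio was -0.064 ± 0.20, so the arrays differed by less than the modelled spot error.

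Itgb2 encodes CD18, the beta chain shared by LFA-1 and Mac-1, and had the highest ratio of the leukocyte members. Its probe at chr10:77027978-77028037 on the plus strand gave 929 ± 92.9 after noise and 679 ± 67.9 at baseline, a log2 ratio of 0.27 ± 0.20. The alpha chains among the members, Itgal and Itgam, were lower in ratio. Itgal, the alpha chain of LFA-1, gave 97.3 and 79.0, 30.0 and 25.4, and 18.3 and 15.3 on its 3 probes (noise and baseline), with log2 ratios of 0.12, 0.055 and 0.072. The last 2 of these probes share a run of 56 bases and are close to a repeat reading of 1 target.

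Itgam, the alpha chain of Mac-1 and a marker of neutrophils, monocytes and macrophages, was the lowest of the 9. Its probe A_55_P1977926 gave 32.0 ± 3.42 after noise and 32.0 ± 3.40 at baseline, which after scaling is a log2 ratio of -0.19 ± 0.22. The probe A_55_P1977934, 49.6 kb away on the genome, gave 9775 ± 977 and 9915 ± 991, a log2 ratio of -0.20 ± 0.20. The pair agree within spot error in ratio, although the latter carries the alternating C and A run shown above and the former does not. That run of 20 bases is held by 29 of 56604 probes (0.0512%), and all 29 were measured on both arrays, against 73.6% of all probes. How much of the A_55_P1977934 signal comes from Itgam transcript was not tested.

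The other alpha chains of this integrin family, named here for their role, lay above 0, as Itgb2 and Itgal did in the main setting. Itgax (CD11c) was at a log2 ratio of 0.29, slightly above Itgb2 at 0.27, and Itgad was at 0.16. The chains of VLA-4, the receptor for Vcam1, lay on either side of 0, with Itga4 at -0.19, its 5 probes running from -0.28 to 0.28, and Itgb1 at 0.18. In the whole list of further leukocyte adhesion genes, 10 of 14 measured genes were above 0, none was past 2-fold, and the median was 0.16 (0.053 with normexp correction). The lowest was Sirpa, the receptor for CD47, at -0.39, from 2 probes at -0.86 and 0.081.

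In the list of further endothelial adhesion and junction genes, 14 of 17 measured genes were above 0 and none was past 2-fold, with a median of 0.096. This list also holds genes that are not particular to endothelium. Podxl, a sialomucin of the endothelial surface, was highest at 0.96 (71.3 after noise and 32.2 at baseline) and moved to 0.39 with normexp correction and to 1.19, past 2-fold, with spike-in scaling. The lowest was Icam5, a member of the ICAM family made by forebrain neurons, at -0.57. Madcam1, the mucosal addressin, was not well above background on the noise array.

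Genes that make selectin ligand sugars were evenly split, with 6 of 12 above 0, none past 2-fold and a median of 0.0055. Fut4, a fucosyltransferase of leukocytes, was highest at 0.56 and the sulfotransferase gene Chst4 lowest at -0.39, and their normexp values were 0.21 and -0.22. Genes of integrin activation, which switch the leukocyte integrins into their binding state, had 11 of 13 above 0, none past 2-fold and a median of 0.058. Fermt3, the kindlin of blood cells, was highest at 0.41, and Cyth1, which binds the tail of Itgb2, lowest at -0.32, though at 0.069 with its brightest probe.

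Of the other genes that cytokines induce in endothelium, 3 reached further than any member in the main setting. The list was written with earlier results of these data known. Of 17 measured, 14 were above 0 and 3 were at least 2-fold higher, against 0.611% of all genes, with a median of 0.24 (0.13 with normexp correction). The median of the endothelial members was higher, at 0.38 (0.18 with normexp correction). The monocyte chemokine gene Ccl2 had signals of 367 and 75.6 (noise and baseline) and a log2 ratio of 2.09, Il6 had 25.8 and 7.25 and a ratio of 1.65, and the neutrophil chemokine gene Cxcl1 had 66.6 and 24.0 and a ratio of 1.29. With normexp correction Ccl2 stayed past 2-fold at 1.56, while Cxcl1 was at 0.46 and Il6 at 0.25. Under the stricter filter Cxcl1 and Il6 were not measured. Cx3cl1, a chemokine that is itself an adhesion molecule of endothelium, was lowest at -0.39, and Cxcl2 and Csf3 lay below the well-above-background call on both arrays.

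The cytokines that induce these genes, and their receptors, gave 7 of 11 genes above 0, none past 2-fold and a median of 0.056, which was below 0 with normexp correction (-0.044) and with the brightest probe (-0.071). Tnfrsf1a, the main TNF receptor of endothelium, was highest at 0.53 and Il1b lowest at -0.59. The 3 Il1b probes ran from -0.80 to -0.54, and Il1a was not measured.

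**Figure D3:**
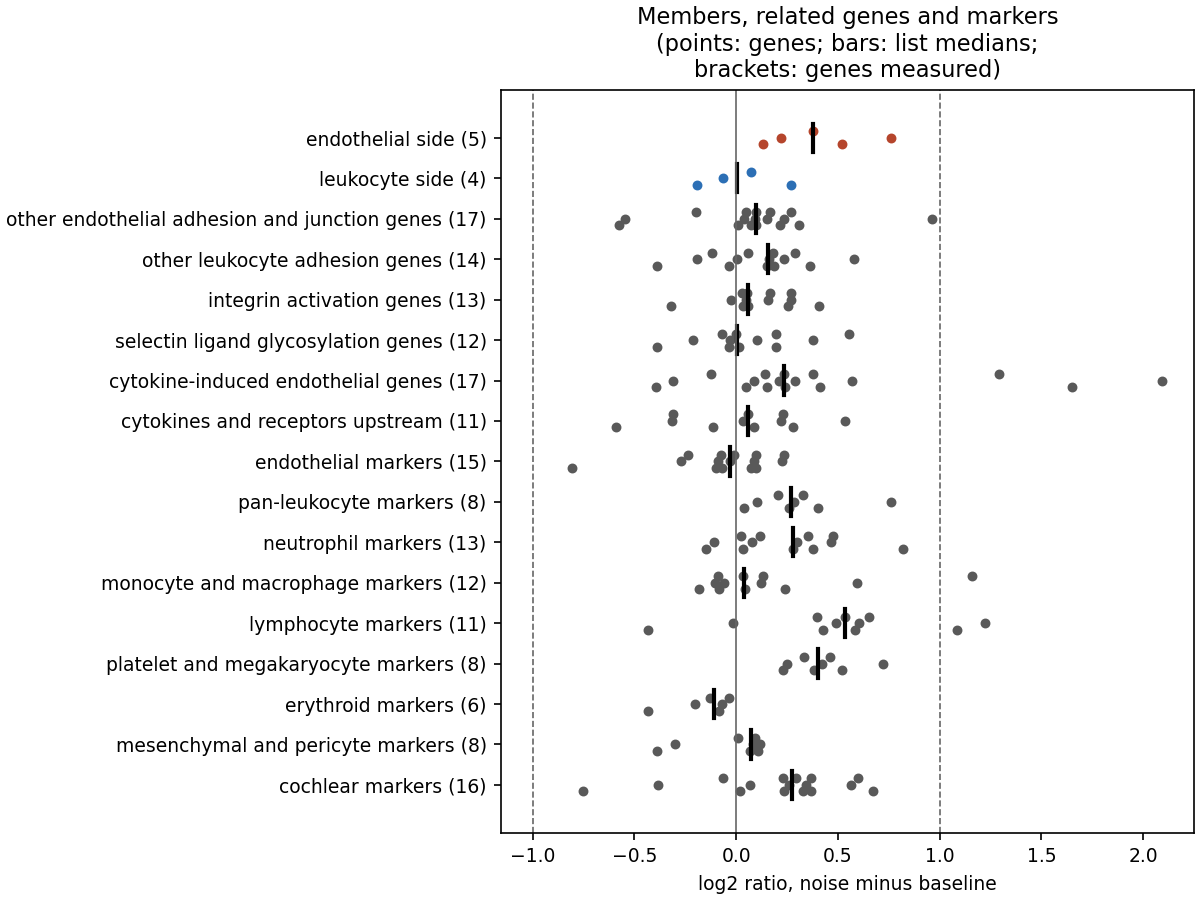
Log2 ratio, noise minus baseline, of the endothelial (red) and leukocyte (blue) members and of genes in related lists and cell marker lists (grey). Bars are list medians, brackets give the number of measured genes and dashed lines mark 2-fold. The adipocyte, skeletal muscle, central glia and neuron, and reference lists are not drawn. Their medians were -1.67, -1.04, -1.78 and 0.033. Ccl2, Il6 and Cxcl1 lie beyond 2-fold in the list of cytokine-induced endothelial genes, and the endothelial marker list centres near 0.

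Markers of the cells that carry these molecules were read on the same arrays. Of 15 endothelial markers, 6 were above 0, with a median of -0.031 and a summed level of 33.7 after noise and 36.4 at baseline, in multiples of the 75th percentile. The median was 0.0075 with normexp correction and 0.19 with spike-in scaling. Pecam1, an endothelial junction gene also found on platelets and leukocytes, was highest at 0.23, and the tight junction gene Cldn5 lowest at -0.81. Beside these markers, the median of the endothelial members was 0.38, which was 0.18 with normexp correction, 0.22 with the brightest probe and 0.60 with spike-in scaling. Whether the members and the markers differ by more than animals vary was not tested. Nor was it tested which cells of the whole tissue the member transcripts came from.

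Leukocyte markers were mostly higher on the noise array, so that the leukocyte members have to be read beside them. All 8 pan-leukocyte markers were above 0, with a median of 0.27 and a summed level of 77.0 against 61.9, from Cd53 at 0.76 to Laptm5 at 0.037. Of 13 neutrophil markers 11 were above 0, with a median of 0.28, from the chemokine receptor gene Cxcr2 at 0.82 to S100a9 at -0.15. Their summed level was 986 on either array. Of 12 monocyte and macrophage markers 7 were above 0, with a median of 0.038 and a summed level of 67.0 against 60.6. Among these Cd163, a hemoglobin receptor of macrophages, passed 2-fold with 1.16 (0.58 under normexp correction), and Cx3cr1 was lowest at -0.18.

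Lymphocyte markers had 9 of 11 above 0 with a median of 0.54 (0.25 with normexp correction), and 2 B-cell precursor genes past 2-fold, Pax5 at 1.22 (0.25 with normexp correction and 0.068 with its brightest probe) and Vpreb1 at 1.08, while Cd4 was lowest at -0.43. Their summed level was 16.3 against 10.7. All 8 platelet and megakaryocyte markers were above 0, with a median of 0.40 and a summed level of 79.5 against 62.9, from Itga2b at 0.72 to Pf4 at 0.23. Platelets also carry P-selectin, and Selp stood at 0.13. All markers in these 5 lists of leukocyte, platelet and megakaryocyte markers were measured on both arrays. The lists include genes of precursor cells. Where in the dissected tissue these cells lay, in vessels, bone marrow or elsewhere, was not tested. The part of these markers in the values of the members was not tested either. Erythroid markers were all 6 below 0 (median -0.11, but 0.11 with spike-in scaling), with Klf1 lowest at -0.44, and mesenchymal and pericyte markers had a median of 0.074, from Dcn at 0.12 to Kcnj8 at -0.39. Reference genes had a median of 0.033, from B2m at 0.16 to Actb at -0.30.

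The stretch of 250 bases before the transcription start is shown for Icam1 and Sele because NF-kappaB sites near the start are known to drive both. Capitals mark matches to GGANNTTCC, a pattern that the core of many NF-kappaB sites has, chosen after the sequences had been seen and searched on both strands. The sequences are from RefSeq, assembly GRCm38.p6, plus strand, at chr9:21015690-21015939 (Icam1) and chr1:164047984-164048233 (Sele). That table held 4 of the 9 members.
Icam1: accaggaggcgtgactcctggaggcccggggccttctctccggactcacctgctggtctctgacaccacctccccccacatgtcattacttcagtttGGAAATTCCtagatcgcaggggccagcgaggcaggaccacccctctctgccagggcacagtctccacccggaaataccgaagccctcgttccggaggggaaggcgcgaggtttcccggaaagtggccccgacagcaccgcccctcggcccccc
Sele: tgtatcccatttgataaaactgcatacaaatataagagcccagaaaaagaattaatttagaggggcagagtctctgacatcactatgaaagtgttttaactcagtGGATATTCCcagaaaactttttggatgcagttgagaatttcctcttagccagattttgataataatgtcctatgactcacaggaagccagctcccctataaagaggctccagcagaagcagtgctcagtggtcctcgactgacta

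The match began 153 bases before the start in Icam1 and 145 bases before it in Sele, and 3.59% of 32851 RefSeq promoter windows of the same length held one. The windows of Selp and Itgam, the other members in the table, held no match to these letters. A wider kappaB pattern, 3 G and 2 C with any 5 letters between them, was present in all 4 windows and in 45.8% of all windows, and in Sele it overlapped the narrower match. The GGANNTTCC pattern also contains the letters of the ETS factor core on the opposite strand. A match is a description of the sequence only.

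The direction of several members depended on the background correction or the scaling. With normexp correction 4 of 5 endothelial members and 1 of 4 leukocyte members were above 0, against 35.1% of all genes. With scaling to 8 spike-in control probes the median of all genes moved from -0.014 to 0.21, 78.4% of genes lay above 0, and all 9 members did. This scaling adds the same shift to every gene and leaves their order as it was. The shift is uncertain, since the 8 spike-in probes differed between the unscaled arrays by -0.20 to 0.40 in log2, with a median of -0.039. The share of all genes past 2-fold was 1.32% higher and 0.701% lower with spike-in scaling, and 0.211% higher and 0.279% lower with normexp correction. No member reached 2-fold in any of the 10 settings, with Sele closest at 0.98 under spike-in scaling.

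**Figure D4:**
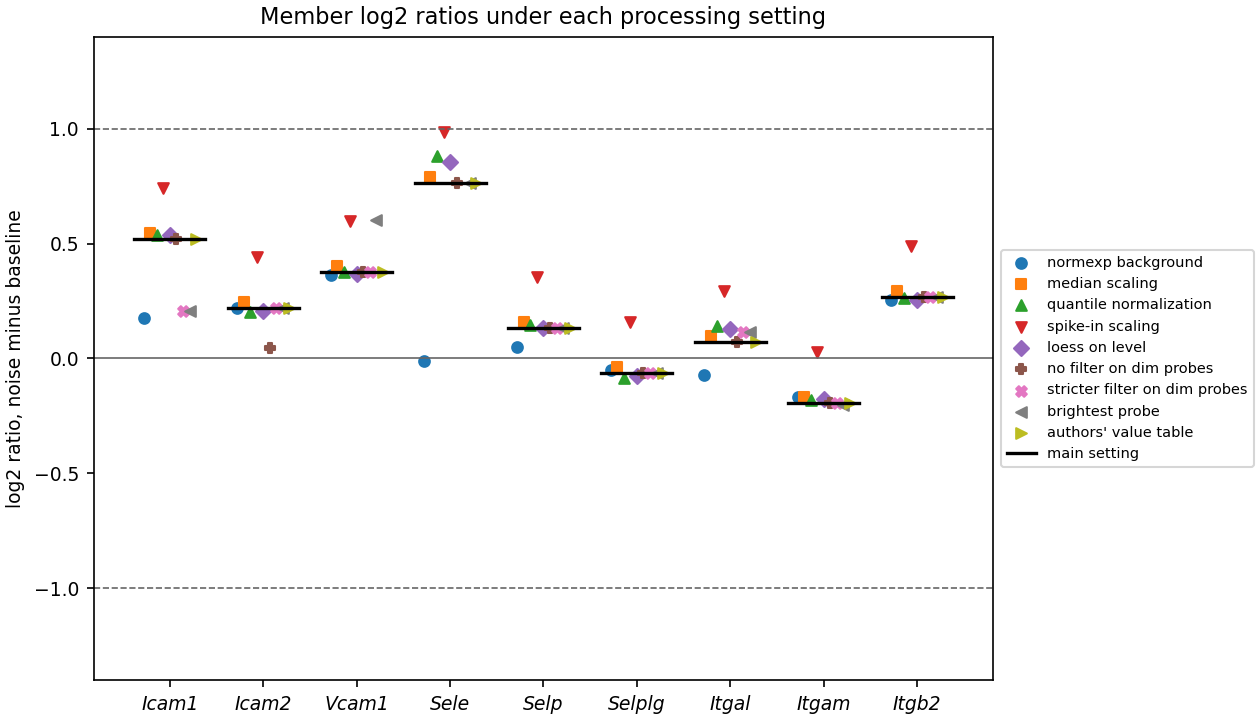
Log2 ratio, noise minus baseline, of each member in the main setting (black bars) and in each of 9 alternative settings (symbols), with dashed lines at 2-fold. All symbols lie inside the dashed lines, and the widest spread is that of Sele, from -0.011 with normexp correction to 0.98 with spike-in scaling.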

How the data were processed

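Per the file headers, the deposited scanner output gives the intensity of each spot from Agilent Feature Extraction 11.5.1.1, background-subtracted and detrended within each array. The arrays shared a slide and a scan. The deposited value table holds log2 values that equal log2 of the processed signal, set to at least 1, minus 8.30 (noise) or 8.12 (baseline) for all matched probes within 0.01. Its column medians are -2.81 and -2.79, so its scale and direction are known and it is not centred by gene.

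Flagged outlier spots (60 and 58 non-control spots) were left out, log2 signals of repeat spots were averaged per probe, and the 75th percentile over 56604 probes was subtracted on each array. A probe was measured when well above background on both arrays (41659 probes), and a gene took the median ratio of its measured probes. Spot errors are the software's own model and not a measured spread. For 300 probes printed 10 times, repeat spots well above background had a median log2 SD of 0.046 (noise) and 0.052 (baseline). The errors and the number of arrays limit the precision. The 13 member probes with a RefSeq accession all matched their symbol. Members and the 21 lists were chosen with earlier results of these data known. Named are all members and, of each list, genes past 2-fold and the highest and lowest; others are named for their role. The highest gene of 2 lists is not reported here. The ratio step was tested on simulated data. R 4.3.3 with limma 3.58.1 and Python 3.11.15 were used.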

Additional observations from a re-analysis of the deposited data

How the results depend on the processing

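The alternatives were normexp background, median, quantile, spike-in and loess scaling, no filter and a stricter filter on dim probes, the brightest probe and the authors' value table. Of 80 member ratios under them, 76 moved by less than the SD of 0.27 between probes of a gene. This count is no measure of robustness. Median and spike-in scaling shift every gene by the same amount, below that SD, and the authors' value table holds nearly the same values. Ratios near 0 could also change sign within it, as did Itgam (-0.19, but 0.027 with spike-in scaling) and Itgal (0.072, but -0.071 with normexp). Icam1 moved to 0.18 with normexp and to 0.20 with the stricter filter or the brightest probe, and Sele to -0.011 with normexp, whose offset of 50 exceeds both of its signals. After the data were seen, the probe with the lowest or highest ratio was also tried (Icam1 0.20 or 0.84), as was a 1.5-fold rule, which 1 member, Sele, passed upwards and which 3.02% of all genes passed. The endothelial median ran from 0.18 to 0.60 and the leukocyte median from -0.062 to 0.23 over the planned settings. Low signal limits Sele most. No paired analysis was possible because a group held only 1 array, so no replicate could be left out either.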

Other observations

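The 29 probes that carry the run of 20 alternating C and A bases had a median log2 ratio of -0.085, and the central 95% of them lay between -0.21 and 0.079, against a median of -0.012 for all measured probes. The Itgam probe A_55_P1977934, at -0.20, was near the lower end of that range.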
